A study of Mus musculus with 48 samples.

Results

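Cathepsins are the proteases of the lysosome, and 10 of their genes are described here in cultures of alveolar type II epithelium (AECII) and of smooth muscle from pulmonary arteries (PASMC) of mice: Ctsa, Ctsb, Ctsc, Ctsd, Ctsf, Ctsk, Ctsl, Ctso, Ctss and Ctsz. They are 10 of the 20738 genes that the named features of the array represent, and each was followed through its feature with the highest mean over all 48 arrays. The family was taken up because cathepsin K, Ctsk, was low in extract-treated PASMC in these same arrays, so the values of the extract-treated PASMC against their controls are given as a description and support nothing. All 10 genes had a feature. Ctsa and Ctsd had a second, dimmer one, and Ctso and, in AECII, Ctsf lay near background.

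Both cell types came from C57Bl/6J mice, 8 in all, and each was measured in 3 groups of 8 single-colour arrays, 48 arrays of total RNA. Control arrays (Ctrl) carry the treatment label room air and the others the label smoke. Whether the controls were given a mock extract is not stated, so a contribution of the vehicle to the extract-against-control differences cannot be told apart. The other arrays come from cells given 15% electronic cigarette vapour extract (ECVE) for 24 h, made from an e-liquid without nicotine (0 mg/ml, called 0mg) or with 18 mg/ml nicotine (18mg). AECII were cultured with 10% serum and exposed 24 h after isolation, whereas PASMC were grown with 15% serum, kept for 5 days before the iron particles used in their isolation were removed, and used at passage 1. The labels do not say which replicate number is which mouse, so p-values measure the spread between arrays. All values are log2 intensities as deposited, on which every array has a median of 2.97 to 2.98, and the highest value over all arrays is 15.89. Differences carry a standard error (SE) from limma, and a gene was called at a Benjamini-Hochberg adjusted p under 0.05 over all genes tested.

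Cathepsins are made as inactive precursors, tagged with mannose 6-phosphate in the Golgi, carried to lysosomes and activated there by acid pH and by other proteases. Most are cysteine proteases of the papain family (Ctsb, Ctsc, Ctsf, Ctsk, Ctsl, Ctso, Ctss, Ctsz), whereas Ctsd is an aspartic protease and Ctsa a serine carboxypeptidase. Cathepsin K is the collagen- and elastin-degrading enzyme of osteoclasts and is also made by fibroblasts and vascular smooth muscle cells. Cathepsin S, Ctss, is typical of macrophages and other antigen-presenting cells, and in the lung cathepsin H, Ctsh, processes surfactant protein precursors in alveolar type II cells.

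Over genes, arrays of one group had correlations of 0.978 to 0.986 (AECII) and 0.953 to 0.986 (PASMC). Of 12 alveolar type II markers, 11 had a mean above 5 in AECII controls, and Slc34a2 was near background. Of 10 smooth muscle markers, 8 had a mean above 5 in PASMC controls, and Myocd was near background. Each cell type also carried markers of other cells. In AECII controls 7 of the smooth muscle markers (Acta2 at 11.71, Tagln at 12.83) and 5 of 8 fibroblast markers had means above 5. In PASMC controls 7 of 8 fibroblast and 4 of 12 alveolar type II markers did, the latter being Sftpc, Abca3, Lamp3 and Etv5. Means in PASMC and AECII controls were 9.25 and 10.47 for Abca3 and 10.60 and 10.91 for Lamp3. Those of Etv5 were 9.73 and 7.47, so it was higher in PASMC. Sftpc had means of 5.77 to 6.20 in the 3 PASMC groups, but its single arrays differed widely. They ran from 1.72 to 11.28 in controls, 2.07 to 11.82 in 0mg and 2.00 to 11.21 in 18mg. Of 19 macrophage markers 11 had a mean above 5 in AECII controls and 9 in PASMC controls. Lyz2 was among these in both, whereas Ptprc, Cd68 and Aif1 were near background in both. In each PASMC condition 1 array stood apart with a low mean of the fibroblast markers: 8.83 in control replicate 2, 8.97 in 0mg replicate 5 and 8.85 in 18mg replicate 5, where the next lowest arrays had 10.19, 10.20 and 10.02. The same 3 arrays had the second highest mean of the smooth muscle markers in their groups, at 9.82, 10.08 and 10.11.

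Promoter sequences are shown for Ctsd and Ctsa, because lysosomal genes commonly carry a short palindrome near their start that is bound by the transcription factor TFEB, and for Ctsk and Ctss, which are neighbours in the genome and had unlike patterns in PASMC. RefSeq (GRCm38.p6) gave 10 windows of 250 bases upstream of a start for 9 of the 10 genes, 2 of them for Ctsa, and none was matched for Ctsb. Capitals mark TCACGTGA or its core CACGTG, which overlap, in Ctsd and Ctsa, and GAGGAA on either strand (TTCCTC on the other), the core bound by PU.1, in Ctsk and Ctss. The sequences run 5′ to 3′ on the gene's own strand, from chr7:142387828-142388077 on the minus strand for Ctsd, and on the plus strand from chr2:164833743-164833772 for Ctsa (30 bases around the match), chr3:95498960-95499209 for Ctsk and chr3:95526536-95526785 for Ctss.
Ctsd: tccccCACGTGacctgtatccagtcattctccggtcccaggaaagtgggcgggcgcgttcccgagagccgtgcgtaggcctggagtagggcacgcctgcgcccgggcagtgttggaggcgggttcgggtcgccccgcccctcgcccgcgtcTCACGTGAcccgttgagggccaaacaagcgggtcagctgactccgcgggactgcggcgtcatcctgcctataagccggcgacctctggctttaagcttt
Ctsa: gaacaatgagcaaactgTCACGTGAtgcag
Ctsk: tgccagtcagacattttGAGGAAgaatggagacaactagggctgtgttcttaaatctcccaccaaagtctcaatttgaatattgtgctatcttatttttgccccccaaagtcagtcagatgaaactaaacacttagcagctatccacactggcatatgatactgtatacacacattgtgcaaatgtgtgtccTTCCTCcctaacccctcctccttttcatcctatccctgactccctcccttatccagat
Ctss: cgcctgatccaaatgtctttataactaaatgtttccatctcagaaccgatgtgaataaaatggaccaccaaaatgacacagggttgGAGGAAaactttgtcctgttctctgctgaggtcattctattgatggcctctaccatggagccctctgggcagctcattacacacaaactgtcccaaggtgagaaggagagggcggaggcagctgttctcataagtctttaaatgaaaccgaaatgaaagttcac
CACGTG was present in 4 of the 10 windows (Ctsa, Ctsd, Ctsf and Ctsl), against 6.02% of 32851 promoter windows of the same length, and TCACGTGA in 2 (Ctsa and Ctsd), against 0.79%. Neither TCATGTG nor TGACTCA, searched on both strands, occurred in any of the 10 windows, against 3.25% and 4.46% of all windows. GAGGAA occurred in the windows of Ctsc, Ctsk and Ctss, against 23.25% of all windows. Ctsk and Ctss are close neighbours on chromosome 3, with 1 predicted gene (Gm40096) between them.

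Most of the cathepsins were lower in AECII than in PASMC, and this was read in 3 sets of arrays that share no array: controls, 0mg and 18mg. The sets come from the same fit with a shared estimate of the spread and may share mice, so they are not independent readings. Serum, time in culture and passage differed between the cell types and cannot be told apart from cell type. Of the 9 members bright enough to be tested, 7 were called lower in AECII in each set and none was called higher. That compares with 31.3%, 30.9% and 30.3% of 14775 genes called lower in the control, 0mg and 18mg arrays, and with 59.2%, 58.7% and 58.3% called in either direction. The median difference of the 9 members was -1.29 in control arrays, against -0.044 over all genes. In bulk RNA, fewer cells of a type and less RNA per cell cannot be told apart.

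Cathepsin L, Ctsl, a broad endopeptidase, held 12.61 to 12.96 (median 12.77) in AECII controls and 14.11 to 14.62 (median 14.33) in PASMC controls, so the groups were far apart. The difference was -1.56 (SE 0.070, adjusted p = 1.63e-23, limma), or 2.95-fold, and -1.37 and -1.26 in the 0mg and 18mg arrays. Cathepsin B, Ctsb, an endopeptidase with carboxypeptidase activity, was 12.16 to 12.75 (median 12.48) in AECII controls and 13.34 to 14.13 (median 13.90) in PASMC controls, again without overlap. It differed by -1.40 (SE 0.11, adjusted p = 2.90e-15, limma), and by -1.20 and -1.15 in the 0mg and 18mg arrays. Ctsa, which shields lysosomal sialidase and beta-galactosidase from degradation, was 12.26 to 12.75 (median 12.50) in AECII controls and 13.57 to 13.97 (median 13.84) in PASMC controls. Its difference was -1.29 (SE 0.087, adjusted p = 1.86e-17, limma) there, -1.06 in 0mg and -0.98 in 18mg arrays. Over all 24 arrays of each cell type, Ctsa, Ctsb, Ctsf and Ctsl did not overlap. The share of all genes without overlap was not counted for these arrays, so nothing about cathepsins is read from this. Within the control arrays alone 5 of the 9 tested members did not overlap and were lower in AECII, against 14.8% of all genes.

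Cathepsin F, Ctsf, was 2.29 to 4.82 (median 4.12) in AECII controls and 6.02 to 7.17 (median 6.75) in PASMC controls, a difference of -2.82 (SE 0.28, adjusted p = 7.99e-12, limma). The AECII values lay so near the dim end of the array, with 2.29 below the array median, that this difference is compressed. Ctsk was 8.95 to 10.64 (median 9.83) in AECII controls and 11.12 to 12.14 (median 11.68) in PASMC controls. Its difference was -1.91 (SE 0.21, adjusted p = 8.45e-11, limma), or 3.76-fold, and -1.35 and -1.19 in 0mg and 18mg arrays. The PASMC arrays in these differences are those by which Ctsk was chosen. The step from the control to the extract arrays therefore repeats that choice, and nothing is read from it. Over all conditions 2 of 24 AECII arrays were above the lowest PASMC array. By mean and SD the order of the 6 groups for Ctsk was PASMC control (11.69 ± 0.33, n = 8), PASMC 0mg (11.16 ± 0.22), PASMC 18mg (10.98 ± 0.17), and then AECII 0mg (9.81 ± 0.59), 18mg (9.79 ± 0.50) and control (9.77 ± 0.55). The 3 AECII groups did not differ beyond their spread, nor did both extract groups of PASMC.

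The carboxypeptidase Ctsz and the aspartic protease Ctsd showed the smallest called differences. Ctsz was 11.85 ± 0.14 in AECII controls and 12.35 ± 0.15 in PASMC controls (-0.50, SE 0.067, adjusted p = 1.20e-08, limma), and Ctsd 13.57 ± 0.19 and 14.00 ± 0.17 (-0.42, SE 0.10, adjusted p = 0.000382, limma; SD, n = 8). In the 0mg and 18mg arrays Ctsz differed by -0.33 and -0.37 and Ctsd by -0.26 and -0.33. Of 24 AECII arrays, 10 had Ctsd above the lowest PASMC array. In the 0mg arrays the call of Ctsd was lost in 3 of 16 fits that left out 1 array, with differences of -0.31 to -0.21, and in 2 of 9 alternatives, renewed quantile normalisation (-0.21) and only the arrays compared (-0.26).

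Ctss and Ctsc had the opposite sign and were not called. Ctss was 7.81 to 10.13 (median 9.08) in AECII controls and 5.64 to 10.17 (median 7.49) in PASMC controls, with the PASMC arrays spanning the whole AECII range. Its difference was 1.49 (SE 0.67, adjusted p = 0.0532, limma), and the adjusted p was 0.0835 in 0mg and 0.0750 in 18mg arrays. Ctsc, also called dipeptidyl peptidase I, which activates the granule proteases of leukocytes, was 8.80 ± 0.10 in AECII controls and 8.49 ± 0.60 in PASMC controls (0.31, SE 0.20, adjusted p = 0.184, limma; SD, n = 8). Ctso, a little studied member, was 2.45 ± 0.34 and 3.17 ± 0.56 in the same groups, near the array median in both, and was bright enough to be tested in PASMC only.

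**Figure D1:**
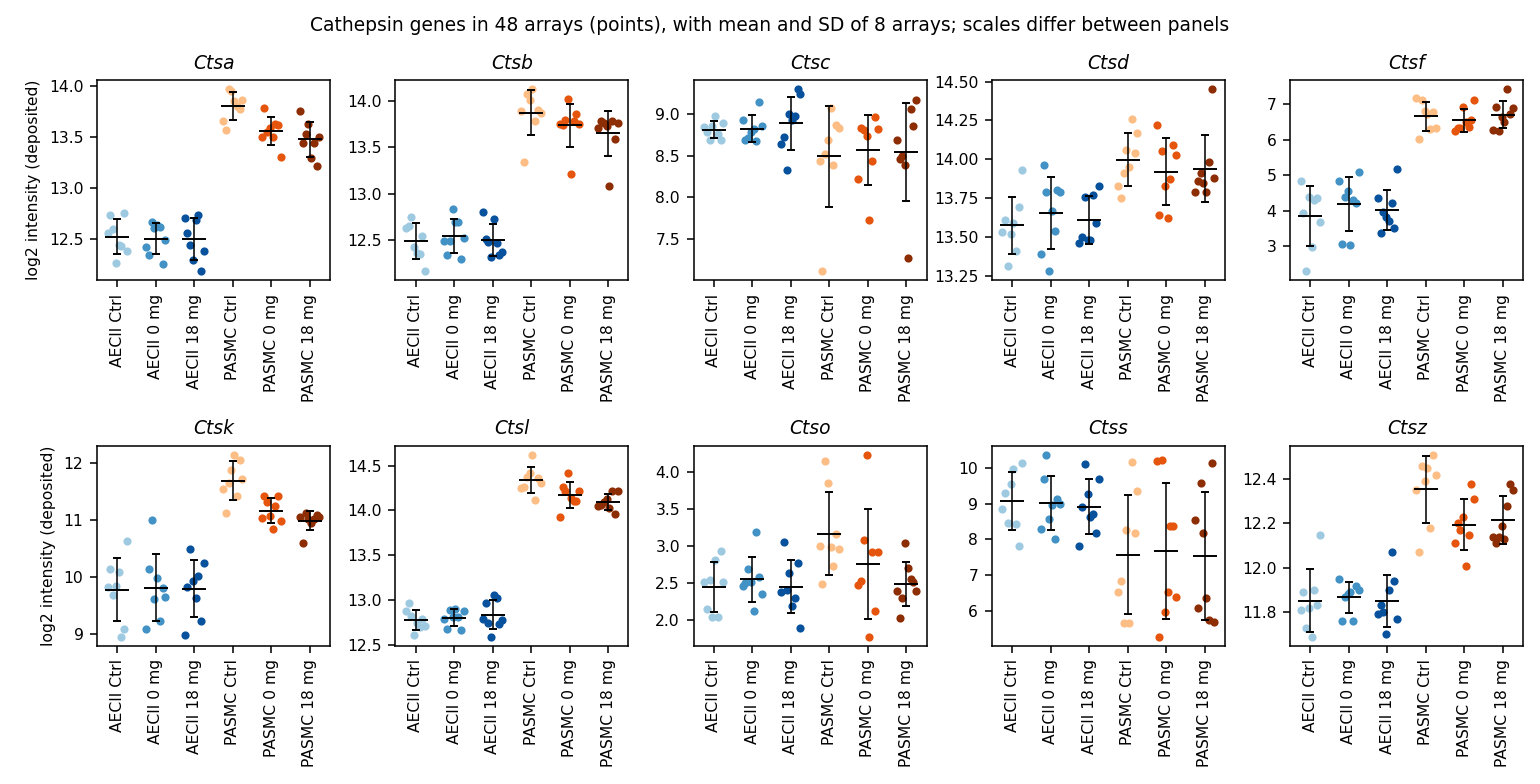
Deposited log2 intensity of the 10 cathepsin genes (1 panel each, y axes differ) in the 6 groups on the x axis; points are single arrays, horizontal bars the mean and error bars the SD of 8 arrays. Ctsa, Ctsb, Ctsf and Ctsl do not overlap between the cell types, for which the share of all genes was not counted. Ctsk is lower in both extract groups of PASMC than in their controls, the difference by which the family was chosen. Ctss spreads from 5.27 to 10.21 within PASMC.

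The other cathepsin genes of the array show that the sign depends on which cathepsins are counted. Of 13 further cathepsin genes 5 were bright enough, and 3 of them were called higher in AECII control arrays, against 27.9% of all genes called higher. Ctse, an aspartic protease of epithelia and immune cells, had means of 10.11 and 2.62 in AECII and PASMC controls (7.49, SE 0.29, adjusted p = 1.08e-25, limma). Ctsh was 14.41 ± 0.22 and 9.93 ± 0.30 (4.48, SE 0.12, adjusted p = 1.40e-31, limma; SD, n = 8), and Ctsw, a protease of cytotoxic lymphocytes, had means of 7.01 and 2.83 (4.18, SE 0.30, adjusted p = 2.91e-16, limma). The PASMC means of Ctse and Ctsw lay below the array median, so both differences are compressed and no more than lower bounds. Ctsg, a serine protease of neutrophils, was called lower (-0.89, SE 0.25, adjusted p = 0.00177, limma) at means of 2.38 and 3.27 near the array median. None of these 5 genes had an unadjusted p under 0.05 in the PASMC comparisons with control. In AECII Ctsj did with 0mg (-0.61, SE 0.22), between means of 3.27 and 2.65 near the array median, and it was not called.

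**Figure D2:**
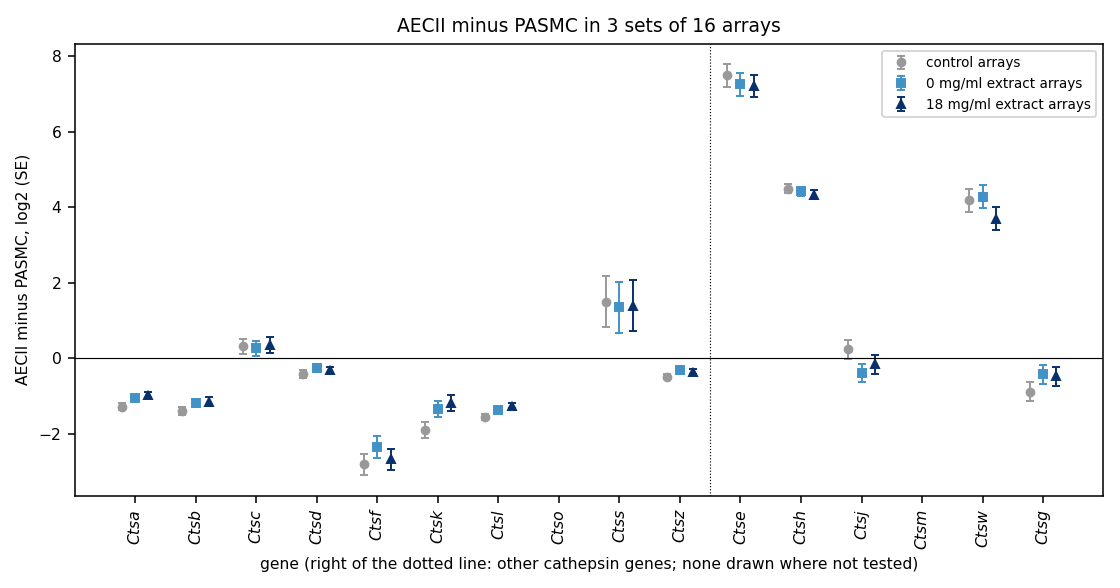
AECII minus PASMC on the log2 scale (y axis, error bars SE) for each cathepsin gene (x axis) in control, 0 mg/ml and 18 mg/ml extract arrays, 16 arrays a set. Ctsf, Ctsk, Ctsl, Ctsb and Ctsa lie below 0 in all 3 sets (-2.82 to -1.29 in controls), while Ctse, Ctsh and Ctsw lie above 0 (7.49, 4.48 and 4.18 in controls, those of Ctse and Ctsw being lower bounds because their PASMC means are below the array median).

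In PASMC given the nicotine-containing extract, 8 of the 10 members had lower means than in controls, and Ctsk differed most. The signs of Ctsc, Ctsf and Ctss changed between analyses of the same arrays, so this count did too. Ctsk was 11.12 to 12.14 (median 11.68) in the 8 control arrays and 10.59 to 11.11 (median 11.04) in the 8 arrays of 18mg. All 8 extract arrays were below the lowest control array, and groups without overlap were found in 7 of 14545 genes (0.0481%). The difference was -0.70 (SE 0.13, 95% interval -0.96 to -0.44), which is 1.63-fold. Ctsk was 1 of 4 genes called (0.0275%), all of them lower. In the same contrast Ctsa differed by -0.33 (SE 0.085), Ctsl by -0.24 (SE 0.077) and Ctso by -0.68 (SE 0.27), the last between means of 3.17 and 2.49 near background. These 3 and Ctsk were the members with an unadjusted p under 0.05, against 589 genes at that level (4.05%), 347 of them lower (2.39%). The median of the 10 members was -0.18, and the median of all genes 0.0066, with 48.2% of genes below 0. Since the family was taken up from this contrast, nothing is read from these shares.

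The call of Ctsk depended on the arrays and on the model. It was called in 6 of 12 other analyses of the same arrays and in 1 of 16 fits that left out 1 array, the one without control replicate 2. Its difference stayed between -0.80 and -0.64 in all of them. Without the PASMC arrays with Sftpc above 6 no gene was called, Ctsk included. With the mean of the macrophage markers as a covariate the difference was -0.70, and without the 3 arrays low in fibroblast markers it was -0.77 and 7 genes were called. None of 19 macrophage markers had an unadjusted p under 0.05 in PASMC 18mg against control. The mean of their log2 values ran from 4.47 to 7.32 in control, 4.47 to 7.35 in 0mg and 4.38 to 7.61 in 18mg arrays. The cause of the Ctsk difference was not tested.

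With the nicotine-free extract 8 members also had lower means, with Ctsf in place of Ctss, and here the signs of Ctsc and Ctss changed between analyses. Ctsk was 10.84 to 11.42 (median 11.15), so 4 of 8 arrays were below the lowest control and 6 of 8 controls were above the highest 0mg array. The difference was -0.53 (SE 0.13, 95% interval -0.79 to -0.27). Ctsa, at 13.30 to 13.79 (median 13.57) against 13.57 to 13.97 (median 13.84) in controls, differed by -0.25 (SE 0.085), Ctsl by -0.17 (SE 0.077) and Ctsz by -0.16 (SE 0.075). No gene was called in this contrast (0%), and 402 of 14545 genes had an unadjusted p under 0.05 (2.76%), 242 of them lower (1.66%), these 4 members included. The median over the members was -0.15, and the median of all genes 0.0038, with 48.7% of genes below 0. The 2 contrasts share their 8 control arrays, so their likeness is no independent observation. Ctsb differed by -0.14 (SE 0.12) and -0.23 (SE 0.12) in 0mg and 18mg, and Ctsd by -0.076 and -0.056 (SE 0.11 each). Ctsc, Ctsf and Ctss had differences between -0.11 and 0.088 in both contrasts, and for Ctss the SE was 0.85.

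**Figure D3:**
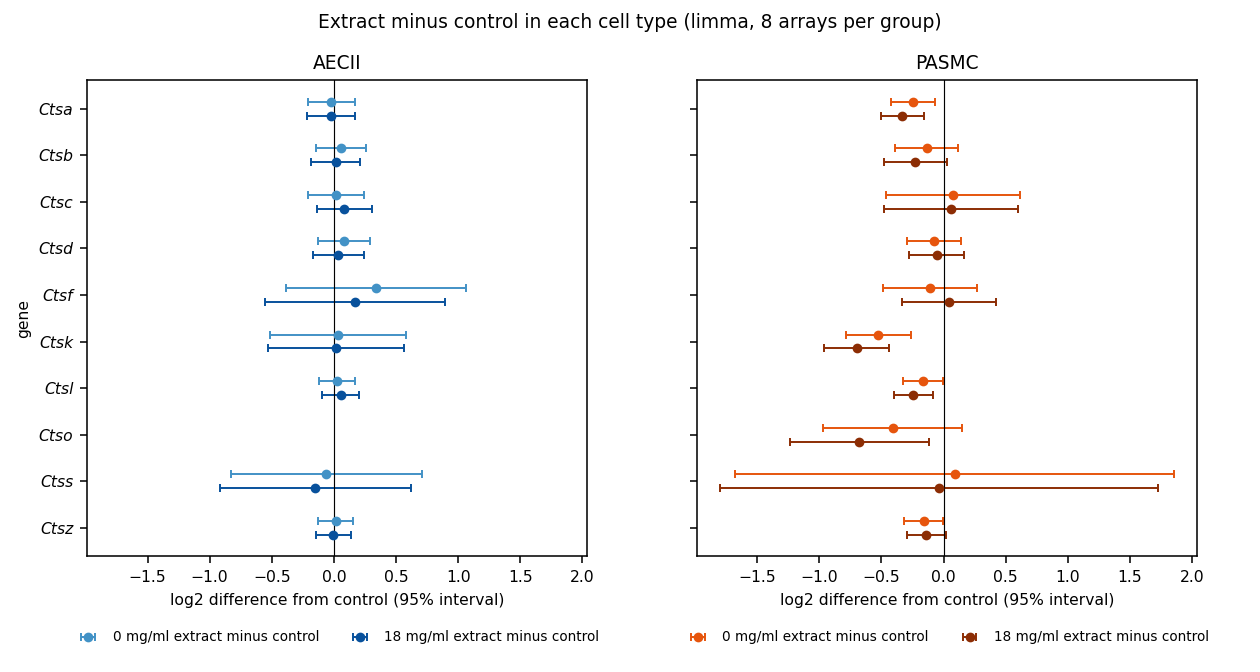
Log2 difference of each extract from control (x axis, points, with the 95% interval of limma as bars) for each cathepsin gene (y axis) in AECII and PASMC, 8 arrays per group; Ctso was not tested in AECII. In PASMC the 18 mg/ml intervals of Ctsk (-0.96 to -0.44), Ctsa (-0.51 to -0.16), Ctsl (-0.40 to -0.084) and Ctso (-1.24 to -0.12) lie below 0. The family was chosen by Ctsk in these PASMC arrays, so this supports nothing. In AECII every interval includes 0, and no difference between the responses of the cell types was called.

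Both extracts were compared directly to ask whether the nicotine content moved the cathepsins in PASMC. No gene was called (0 of 14545, 0%), with 282 at an unadjusted p under 0.05 (1.94%), none of them a member. Ctsk was -0.17 in 18mg relative to 0mg (SE 0.13, 95% interval -0.44 to 0.087, adjusted p = 0.9999, limma). The interval of Ctsa was -0.26 to 0.091 and that of Ctsl -0.24 to 0.082, so each included 0. In all, 7 of 10 members had lower means in 18mg, with a median of -0.081, beside 48% of all genes and a median of 0.0055. The signs of Ctsc, Ctsd, Ctso and Ctsz changed between analyses of the same arrays, so this count is not stable.

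In AECII, which the choice of the family did not use, no cathepsin passed the test with either extract. None of 9 tested members had an unadjusted p under 0.05 for 0mg, 18mg or 18mg against 0mg, and no gene at all was called (0 of 14477 in each, 0%), with 480 (3.32%), 341 (2.36%) and 447 (3.09%) genes at an unadjusted p under 0.05 by limma. The median over the members was 0.026 with 0mg and 0.017 with 18mg. Ctsk was 8.95 to 10.64 (median 9.83) in controls, 9.08 to 10.995 (median 9.73) in 0mg and 8.99 to 10.49 (median 9.88) in 18mg, with the 3 ranges overlapping. It differed by 0.035 and 0.017 (SE 0.26 each), with 95% intervals of -0.51 to 0.58 and -0.53 to 0.56, and its small sign is not stable, being negative with a fibroblast covariate. Ctsa differed by -0.019 and -0.023 (SE 0.093 each), with intervals of -0.21 to 0.17 and -0.22 to 0.17, and the mean of its 2 features gave 0.018 and 0.16. The intervals of Ctsl were -0.12 to 0.17 and -0.093 to 0.20. In AECII the SD of Ctsk between arrays was 0.50 to 0.59, against 0.17 to 0.33 in PASMC.

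The difference between the cell types' responses was tested as an interaction, in which the PASMC side is the one the family was chosen by. No gene was called for 0mg (0%, 393 genes or 2.66% at an unadjusted p under 0.05) or for 18mg (0%, 382 genes or 2.59%). For 18mg the response of AECII minus that of PASMC was 0.72 for Ctsk (SE 0.30, 95% interval 0.12 to 1.32), 0.31 for Ctsa (SE 0.12) and 0.30 for Ctsl (SE 0.0996), each with an adjusted p of 1.00 by limma. For 0mg that of Ctsk was 0.56 (SE 0.30, interval -0.038 to 1.16). The responses of both cell types were thus not shown to differ.

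Within a cell type the members varied from array to array along separate lines, which are given as descriptions because arrays of different conditions may come from the same mouse. Ctss followed the mean of 19 macrophage markers, with Pearson's r of 0.91 and Spearman's rho of 0.90 over 24 AECII arrays, r of 0.89 to 0.97 within the 3 groups, and r of 0.90 without the 2 arrays farthest from the median. The relation was not particular to these markers. In AECII the r of Ctss was 0.75 with smooth muscle, 0.71 with fibroblast, 0.69 with osteoclast and 0.44 with alveolar type II markers. In PASMC the Ctss values split at a wide gap. In each condition 4 arrays lay below it and 4 above, 12 at 5.27 to 6.82 with a macrophage marker mean of 4.38 to 5.14, and 12 at 8.17 to 10.21 with a marker mean of 6.02 to 7.61. Within the lower 12 arrays the r of Ctss with the macrophage markers was 0.72, and within the upper 12 it was 0.89. Over all 24 PASMC arrays that r was 0.98, beside 0.89 with osteoclast and 0.77 with alveolar type II markers. With smooth muscle and fibroblast markers it was 0.49 and -0.096. Several defining macrophage markers were near background in both cell types, among them Ptprc, Cd68 and Aif1, while Lyz2 had means of 10.00 and 8.79 and Marco of 7.32 and 9.82 in AECII and PASMC controls.

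Ctsk followed the macrophage markers in AECII, whereas in PASMC its correlation with them was near 0. In AECII its r with the marker mean was 0.86 (rho 0.85, 0.81 without the 2 farthest arrays, 0.84 to 0.90 within groups), and with Ctss it was 0.92 (rho 0.92, within groups 0.87 to 0.96). With the other marker means the r of Ctsk in AECII was 0.75 for fibroblast, 0.65 for smooth muscle, 0.625 for osteoclast and 0.365 for alveolar type II. In PASMC the r of Ctsk with the macrophage mean was 0.12 (rho 0.16, 0.24 without the 2 farthest arrays, up to 0.40 within groups). With Ctss it was 0.06 (rho 0.08, within groups -0.14 to 0.51). The values over all PASMC arrays include the difference between conditions.

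Ctsb and Ctsc followed the fibroblast markers in PASMC, and for Ctsc the relation rested on 3 arrays. The r over 24 arrays was 0.89 for Ctsb (rho 0.58) and 0.84 for Ctsc (rho 0.42). Without the 3 arrays low in fibroblast markers, where Ctsb was 13.34, 13.21 and 13.08 and Ctsc 7.12, 7.73 and 7.28, it was 0.56 and 0.26. With the smooth muscle markers the r of Ctsb was -0.675 over the 24 PASMC arrays (rho -0.62). The r of Ctsb with Ctsc went from 0.76 to 0.14 without the 3 arrays low in fibroblast markers. In AECII Ctsb had an r of -0.03 with the fibroblast markers. It was -0.65 with the macrophage, -0.64 with the smooth muscle, -0.62 with the alveolar type II and -0.58 with the osteoclast markers. Ctsa, Ctsb and Ctsl moved together in AECII, where the r of Ctsa was 0.78 with Ctsl and 0.73 with Ctsb. In PASMC Ctsk had an r of 0.76 with Ctsa, 0.71 with Ctsl and 0.75 with Ctsz, values that include the difference between conditions. Within the conditions these ran from 0.13 to 0.71, 0.07 to 0.77 and 0.47 to 0.88. Ctsd had an r of 0.67 and 0.75 with the macrophage markers in AECII and PASMC. Other marker means came near these values. In AECII the r of Ctsd was 0.63 with alveolar type II and 0.575 with smooth muscle markers, and in PASMC 0.80 with osteoclast markers.

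**Figure D4:**
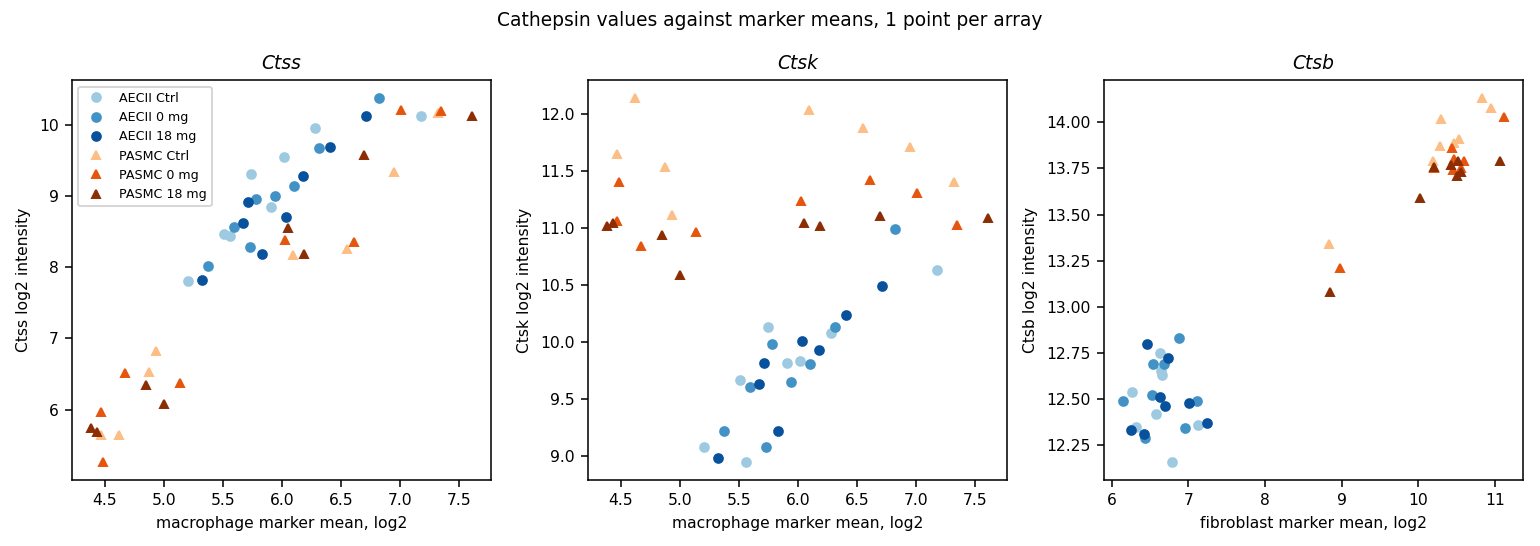
Log2 intensity of Ctss, Ctsk and Ctsb (y axes) against the mean log2 value of macrophage or fibroblast markers (x axes), 1 point per array, circles for AECII and triangles for PASMC. Ctss rises with the macrophage markers in both cell types, for Ctsk r is 0.86 in AECII and 0.12 in PASMC, and the 3 PASMC arrays with a fibroblast mean of 8.83 to 8.97 have the lowest Ctsb of their groups.

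The genes whose log2 values were most like Ctsk over the 24 PASMC arrays, out of 14537 compared, were Uap1l1 (r of 0.94, rho 0.92), Dpp7 (0.88), Kazn (0.84), Nabp2 (0.83) and Tgoln1 (0.82), an order that includes the difference between conditions. Dpp7 encodes a dipeptidyl peptidase of intracellular vesicles. Those most like Ctss in AECII were Tyrobp (0.96), Clec4n (0.95), Bcl2a1d (0.95), Lilrb4a (0.95) and Clec7a (0.94), mostly genes of myeloid cells. In PASMC, a list added after the values were seen, Ctss was most like Tyrobp (0.98), Clec4n (0.98), Lyz2 (0.98), Mpeg1 (0.98) and Clec7a (0.97), of which Tyrobp, Lyz2 and Mpeg1 belong to the macrophage markers.

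Genes that activate, stabilise or accompany cathepsins in the lysosome were also mostly lower in AECII than in PASMC. All 12 tested genes of this list were called in control arrays, 9 lower in AECII and 3 higher (median -1.01), against 59.2% of all genes called, 31.3% lower and 27.9% higher. Dpp7 (-1.79, SE 0.13), the tripeptidyl peptidase Tpp1 (-1.55, SE 0.14), the carboxypeptidase Scpep1 (-1.47, SE 0.11) and the beta-galactosidase Glb1 (-1.22, SE 0.11) were lower. Cd74, the invariant chain that cathepsins cleave during antigen presentation (4.65, SE 0.59), the sorting receptor Sort1 (1.35, SE 0.23) and the sialidase Neu1 (0.39, SE 0.11) were higher. Of 10 genes that attach mannose 6-phosphate or sort its carriers, 2 were called lower, Gga1 (-0.46) and Vps26a (-0.41), and the receptor M6pr higher (0.24), a call lost with only the arrays compared, so a smaller share of this list was called than of all genes. Of 7 tested inhibitors of cysteine proteases, the cystatins Cst6 (-1.06, SE 0.18) and Cst3 (-0.69, SE 0.12) and the fetuin Fetub (-0.64) were lower in AECII, and the kininogen Kng1 (2.40, SE 0.31) and the stefin Stfa2 (1.09) higher, 5 of 7 called in all.

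In PASMC none of the genes of these lists was called with either extract in the fit described. The lists were chosen with earlier results of the same arrays known, and the counts below are a description from which nothing is read. Of 12 partner genes 11 had lower means in 18mg (48.2% of all genes did) and 5 an unadjusted p under 0.05, all lower (2.39% of all genes), with a median of -0.25. Grn, the precursor of granulins and a partner of Ctsd, was 11.22 to 11.56 (median 11.41) in controls and 10.90 to 11.19 (median 11.05) in 18mg, without overlap (-0.35, SE 0.071, adjusted p = 0.0892, limma), and was called in 3 alternatives. Dpp7 differed by -0.59 (SE 0.14) and Neu1, which Ctsa stabilises, by -0.43 (SE 0.11). With 0mg 10 of 12 had lower means (48.7% of all genes did), 4 with an unadjusted p under 0.05, all lower (1.66% of all genes), and Dpp7, Neu1 and Grn differed by -0.55, -0.45 and -0.22. Of the 10 mannose 6-phosphate and sorting genes 8 had lower means with either extract and 3 an unadjusted p under 0.05, all lower, beside the same shares of all genes. Gnptg, a subunit of the enzyme that makes the tag, differed by -0.40 with 0mg and -0.37 with 18mg (SE 0.096 each), the retromer subunit Vps26a by -0.26 and -0.41 (SE 0.11) and the adaptor Gga2 by -0.24 and -0.33 (SE 0.12). Of 8 tested inhibitors 6 had lower means with 0mg and 7 with 18mg, and 1, Cstb, had an unadjusted p under 0.05, at -0.27 with 18mg (SE 0.12).

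In AECII no gene of the partner or sorting lists had an unadjusted p under 0.05 with either extract. The medians over the 12 partners were 0.021 and -0.063 and over the 10 sorting genes 0.058 and -0.00027 with 0mg and 18mg. Among the inhibitors Fetub differed by 0.50 with 0mg and 0.48 with 18mg (SE 0.21 each) and Cst6 by 0.40 with 18mg (SE 0.16), none of them called. In the interaction for 18mg the partner and sorting gene with the smallest p was Vps26a, at 0.58 (SE 0.14, adjusted p = 0.308, limma), and none was called.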

How the data were processed

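Total RNA of 48 cultures was hybridised in 1 colour (Cy3) to Agilent arrays. The deposited matrix holds 1 log2 value for each feature on each array. Of tools, the submitters' processing notes list limma, with no version. Array medians ran from 2.97 to 2.98 and the lowest values of the arrays from 1.52 to 1.53, and the quartiles had medians over arrays of 2.25 and 5.78. The authors' log2 values were therefore taken to be quantile normalised already, and they were used as deposited. Of 62976 features 31465 carry a gene name. For each of 20738 genes the feature brightest on average over all arrays was used (6171 had several). Genes with a mean above 2.73, the 30th percentile of named features, were tested.

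Groups were taken from the labels. limma 3.58.1 (R 4.3.3) was fitted with lmFit and eBayes, 1 coefficient per group, over the 24 arrays of a cell type (14477 genes in AECII, 14545 in PASMC) or all 48 (14775), two-sided, with Benjamini-Hochberg adjustment over all genes tested. The procedure was tested on simulated data. The number of arrays limits the precision.

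The members and lists were chosen with earlier results of these data known. All members are named in the cell type contrasts, and in treatment contrasts Ctsk, Ctsa and members with an unadjusted p under 0.05, and any others named there were chosen after their values were seen. Of the lists, up to 4 called genes per direction (cell types) or 3 with an unadjusted p under 0.05 (treatments) are named. Genes most like Ctsk or Ctss are the 5 with the highest r. Cst8 and Siglec5 have no feature here, and 1 further listed gene is not reported here. Alternatives were a filter at the 50th percentile or none, median centring, quantile normalisation applied again, the mean of all features, the replicate number as a block, only the arrays compared, trend and robust fitting, array weights, marker covariates, leaving out arrays with Sftpc above 6 or low fibroblast markers, and leaving out each array in turn.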

Additional observations from a re-analysis of the deposited data

Results flagged for a closer look

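In 8 of 60 groups of 8 arrays 1 array lay far from the others by Dixon's criterion (the gap to the nearest array relative to the range), which chance alone gives in about 1 group in 20. Of these, 5 came from the arrays low in fibroblast markers. Ctsb was 13.34 in PASMC control replicate 2 (next lowest 13.79), 13.21 in 0mg replicate 5 (next 13.74) and 13.08 in 18mg replicate 5 (next 13.59). Ctsc was 7.12 in control replicate 2 and 7.28 in 18mg replicate 5, with 8.39 next in both groups. Ctsk was 10.59 in PASMC 18mg replicate 2, below the next array at 10.94. Ctsd was 14.45 in PASMC 18mg replicate 7, above the next at 13.98, and Ctsz 12.15 in AECII control replicate 8, above the next at 11.90. No interaction between cell type and extract was called for any gene.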

How the results depend on the processing

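Counts of called genes in AECII, in PASMC 18mg against 0mg and in the 0mg interaction were 0 in all alternatives and left-out fits, and the cell type counts stayed within 1.5 times. For PASMC 0mg against control the count was 1 with array weights and 1 without the arrays low in fibroblast markers, and 0 to 1 when 1 array was left out. For PASMC 18mg against control (4 genes) it was 1 without a filter, 8 with the 50th percentile, 1 with the mean of all features, 0 with only the arrays compared, 13 with array weights, 0 without arrays with Sftpc above 6, 1 with the macrophage covariate and 7 without the arrays low in fibroblast markers. It was 1 to 4 when 1 array was left out. The 18mg interaction had 1 gene with array weights. The cause of these changes was not tested.

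The replicate number as a block gave 0 genes for PASMC 18mg against control, with Ctsk at -0.70 as before. In AECII the deviations of arrays with the same number had correlations of -0.21 to 0.28 (median 0.042), with 5 of 24 pairs above 0.1. In PASMC these ran from -0.40 to 0.62 (median 0.025), with 9 of 24 pairs above 0.1. Pairs of different numbers had medians of -0.024 and 0.0081 and reached 0.32 and 0.67. The numbers need not stand for mice, so these values cannot show whether arrays share a mouse. Arrays were entered as independent, and the p-values ignore any sharing of mice.

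Signs changed for members with differences near 0 in both cell types. In PASMC, over the alternatives, Ctsc was -0.017 to 0.194 and Ctss -0.048 to 0.173 with 0mg, Ctsc -0.045 to 0.104, Ctsf -0.065 to 0.093 and Ctss -0.094 to 0.074 with 18mg, and in 18mg against 0mg the signs of Ctsc, Ctsd, Ctso (-0.437 to 0.0075) and Ctsz changed. In AECII Ctsa was 0.018 (0mg), 0.16 (18mg) and 0.14 (18mg against 0mg) with the mean of all features, and 0.000296 in the last with the macrophage covariate. Ctsk was -0.012 (0mg) and -0.061 (18mg) with the fibroblast covariate, -0.039 (18mg) with the macrophage covariate and 0.0050 (18mg against 0mg) with array weights. With 1 array left out, Ctsk ranged from -0.13 to 0.16 (0mg), -0.10 to 0.14 (18mg) and -0.12 to 0.15 (18mg against 0mg), and Ctsa from -0.055 to 0.017 (0mg), -0.059 to 0.022 (18mg) and -0.039 to 0.041 (18mg against 0mg). In control arrays Ctss was called between the cell types in 5 of 9 alternatives and 4 of 16 left-out fits, at 1.22 to 1.87. The macrophage covariate in PASMC, the fibroblast covariate in AECII and the removal of the low fibroblast arrays were chosen after seeing the data. Values near background, as for Ctso and Ctsf in AECII, limit what can be seen.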

Other observations

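Matrix proteins that cathepsin K can degrade were, like Ctsk itself, lower in AECII than in PASMC: 7 of 7 tested genes were called lower in control arrays, among them osteopontin, Spp1 (-5.86, SE 0.37), Col3a1 (-3.40, SE 0.64), Col1a2 (-3.24, SE 0.22) and Col1a1 (-2.34, SE 0.15), against 31.3% of all genes. Of 7 tested genes on a list of other enzymes of matrix breakdown, 6 proteases and the phosphatase Acp5, 4 were called lower (31.3% of all genes were), the fibroblast protease Fap (-6.40, SE 0.57), the gelatinase Mmp2 (-4.57, SE 0.22), the collagenase Mmp13 (-3.73, SE 0.34) and Mmp14 (-0.48, SE 0.11). Acp5, which is tartrate-resistant and marks osteoclasts and alveolar macrophages, was higher in AECII (2.12, SE 0.50), with an SD of 0.21 between AECII and 1.36 between PASMC control arrays. In PASMC none of 8 substrate genes and none of these 7 genes had an unadjusted p under 0.05 with either extract or between the extracts.

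Of 10 tested regulators of lysosomal and osteoclast-type genes 6 were called lower in AECII control arrays (31.3% of all genes were), among them Tfec (-2.39, SE 0.25, near background in AECII), Stat6 (-1.12, SE 0.080), Mitf (-1.06, SE 0.23) and Stat3 (-0.63, SE 0.17), and Nfatc1 was called higher (0.64, SE 0.18), so 7 of 10 were called against 59.2% of all genes. None had an unadjusted p under 0.05 in PASMC with either extract. In AECII Tfec did with 18mg (0.81, SE 0.30), between means of 2.48 and 3.29 near background, and it was not called.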
